A study of Mus musculus with 6 samples.

Results

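Activins are secreted signalling dimers of the TGF-beta family, and the genes described here encode their subunits, their receptors, the activin-binding follistatin and a follistatin-like protein. The set holds 9 of the 52636 genes in the deposited count table: Inhba and Inhbb, Fst and Fstl4, and the receptor genes Acvr1, Acvr1b, Acvr1c, Acvr2a and Acvr2b. The 9 genes were chosen from this family by name with the hemisphere comparison already known, because Inhba had passed the test in that comparison. Their differences between hemispheres are therefore a description and support nothing beyond the table of all genes they come from. All 9 Ensembl IDs were found, and all 9 passed the filter on low counts.

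The samples were primary visual cortex (V1) of 3 C57BL/6J wild-type mice, taken at postnatal day 28. Each mouse had spent the 3 preceding days with the right eye closed by lid suture, so that both groups come from deprived animals and no undeprived mouse was included. The contralateral group was left V1, opposite the sutured eye, and the ipsilateral group was right V1 of the same mice, with 3 libraries of total RNA in each. The dissected tissue holds all cortical cell types, so fewer cells of a type and less RNA per cell cannot be told apart.

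Inhba encodes the beta A and Inhbb the beta B subunit, and 2 such subunits joined by a disulphide bond make activin A, AB or B. The ligand binds a type II receptor kinase, Acvr2a or Acvr2b, which phosphorylates a type I receptor, Acvr1b (ALK4) or Acvr1c (ALK7), and this in turn activates the transcription factors Smad2 and Smad3. Follistatin, the product of Fst, wraps around the ligand and keeps it from its receptors. In forebrain neurons Inhba is known as a gene that synaptic activity switches on, and activin A is known to act on dendritic spines and glutamatergic transmission.

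The stretches just before the starts of the subunit genes are shown because Inhba differed between the hemispheres while Inhbb did not pass. Both are RefSeq sequences of build GRCm38.p6, 250 bases long and written 5′ to 3′ in the direction of transcription, and they end at the base before the annotated start. That of Inhba is chr13:16011601-16011850 on the plus strand and that of Inhbb is chr1:119422249-119422498 on the minus strand.
Inhba: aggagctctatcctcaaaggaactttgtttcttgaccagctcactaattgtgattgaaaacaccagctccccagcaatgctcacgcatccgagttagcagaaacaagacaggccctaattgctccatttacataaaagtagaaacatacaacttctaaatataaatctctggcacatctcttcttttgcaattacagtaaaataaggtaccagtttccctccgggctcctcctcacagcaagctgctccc
Inhbb: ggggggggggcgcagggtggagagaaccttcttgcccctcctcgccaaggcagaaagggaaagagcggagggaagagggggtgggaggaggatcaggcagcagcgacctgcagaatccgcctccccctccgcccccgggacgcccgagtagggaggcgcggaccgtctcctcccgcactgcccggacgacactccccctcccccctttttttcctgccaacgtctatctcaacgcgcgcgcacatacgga
G and C made up 43.2% of the Inhba stretch and 68% of the Inhbb stretch, against a median of 52.4% over 32851 promoter windows. Windows made of these 250 bases and the first 50 transcribed ones were found for 8 of the 9 genes, Fst being the one without. They were searched on both strands for TGACGTCA (cAMP response element), TGANTCA (AP-1), GCGNGGGCG (Egr), CAGACA (Smad) and the serum response element. The windows of Inhba and Inhbb held none of these letters. Incomplete matches and sites outside the windows were not searched for, so this does not show that such elements are lacking.

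Of the 8 genes with a window, Fstl4 had a complete cAMP response element, letters that occurred in 1.79% of all windows. It is shown with 11 bases on each side, in capitals, because it was the one such element in the set. The stretch is chr11:52764618-52764647 (GRCm38.p6, plus strand), and the element lies 77 to 70 bases before the RefSeq start and overlaps the gene start in GENCODE (52764634).
Fstl4: ggcccggagggTGACGTCAcgggctccggt
The Acvr1b window held the Egr letters (in 5.55% of all windows) and the Fstl4 window the Smad letters (in 21%). The AP-1 letters, in 7.81% of all windows, and the serum response element, in 1.63%, occurred in none of the 8 genes. A match of letters is a description and not a measured binding site.

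Libraries held 17849253 to 32213500 reads assigned to genes, and the depth in the 9 genes ran from 36 reads for Fst to 4061 for Acvr1b. The libraries fell into a low set, contralateral 1, ipsilateral 1 and ipsilateral 3, at 14.5 to 35.9 CPM (read counts relative to the TMM-scaled library total) of the mitochondrial ribosomal RNA gene mt-Rnr1. Contralateral 2, contralateral 3 and ipsilateral 2 formed a high set at 2243 to 5801 CPM. Markers of astrocytes (Aqp4, Aldh1l1, Slc1a3 and Gfap) summed to 867 to 1119 CPM in contralateral and 887 to 1029 CPM in ipsilateral libraries. Those of meninges and fibroblasts summed to 33.2 to 45.8 and 31.3 to 54.1 CPM, those of hippocampus to 23.0 to 28.4 and 26.6 to 33.0 CPM, and no marker of these lists was at 0 in all libraries. Single hippocampus markers (Prox1, C1ql2 and Lct) had log2 fold changes (contralateral minus ipsilateral) of -0.22 to 0.41, with a median of 0.36. Their sum therefore does not give the direction of each marker. Meninges and fibroblast markers ran from -0.72 to 0.002 (median -0.38), and none of either list passed.

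Inhba was the member that passed, as lower in contralateral than in ipsilateral V1. With no undeprived mouse, which hemisphere changed cannot be told. Inhba (ENSMUSG00000041324, chromosome 13, 16011851 to 16031621, plus strand) stood at 12.9, 11.2 and 15.5 CPM in contralateral libraries 1 to 3 and at 31.5, 25.1 and 24.97 CPM in ipsilateral libraries 1 to 3. Every contralateral library lay below every ipsilateral one, and the lowest ipsilateral library was 1.61-fold above the highest contralateral one. The means were 13.2 ± 2.15 CPM (SD, n = 3) and 27.2 ± 3.73 CPM, a 2.06-fold difference. Within mice 1 to 3 the contralateral level differed from the ipsilateral one by -1.29, -1.17 and -0.69 on the log2 scale.

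In edgeR's quasi-likelihood test over 20473 genes, the log2 fold change of Inhba was -1.04 (SE 0.17, 95% interval -1.40 to -0.68, adjusted p = 0.0340). It was 1 of 9 members to pass, in a table where 0.127% of genes passed as lower (26 genes) and 0% as higher (7 genes in DESeq2), and it ranked at 22 by p. In either direction 1259 genes had an unadjusted p under 0.05 in edgeR. With the mouse as a block the log2 fold change was -1.04 (SE 0.13, adjusted p = 2.67e-04), and 0.698% of genes then passed as lower and 0.195% as higher. Inhba was again the member that passed, and its count of 1 of 9 is what the choice of the set fixes. The call was lost without contralateral library 2 (adjusted p = 0.336), contralateral library 3 (0.0511) or ipsilateral library 2 (0.108), and without mouse 2 (1.00) or mouse 3 (0.0821). Within the low mt-Rnr1 libraries the log2 fold change was -1.14 (adjusted p = 0.168) and within the high ones -0.91 (0.0886), where the hemisphere with 1 library took its spread from the other hemisphere. Over all 20 alternatives it stayed between -1.23 and -0.91, and the call held in 13. Beside this difference in Inhba stood the 3 markers of GABAergic interneurons (Gad1, Gad2 and Slc32a1). They summed to 223 to 275 CPM in contralateral and 332 to 386 CPM in ipsilateral libraries, groups that did not overlap. Their log2 fold changes were -0.56 to -0.48 (median -0.49). None of the 3 passed, and 2 passed with the mouse as a block. The sums of oligodendrocyte markers were 2684 to 4531 CPM in contralateral and 3749 to 4580 CPM in ipsilateral libraries, those of microglia 123 to 161 and 110 to 137 CPM. Endothelial and mural markers summed to 237 to 328 and 239 to 286 CPM and thalamus markers to 27.3 to 40.6 and 26.3 to 32.9 CPM, and in these 4 lists the groups overlapped. The part of other cell types in the Inhba difference was not tested.

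Inhbb (ENSMUSG00000037035, chromosome 1, 119415465 to 119422248, minus strand), the gene of the other activin subunit, was at 9.01, 6.00 and 6.88 CPM in contralateral and at 6.84, 7.10 and 5.62 CPM in ipsilateral libraries 1 to 3. The groups overlapped, with contralateral library 1 highest and ipsilateral library 3 lowest. Its log2 fold change was 0.16 (SE 0.21, 95% interval -0.29 to 0.61, adjusted p = 0.914), and it turned to -0.02 without contralateral library 1. The difference between the subunit genes was not tested, because the set was chosen for Inhba.

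**Figure D1:**
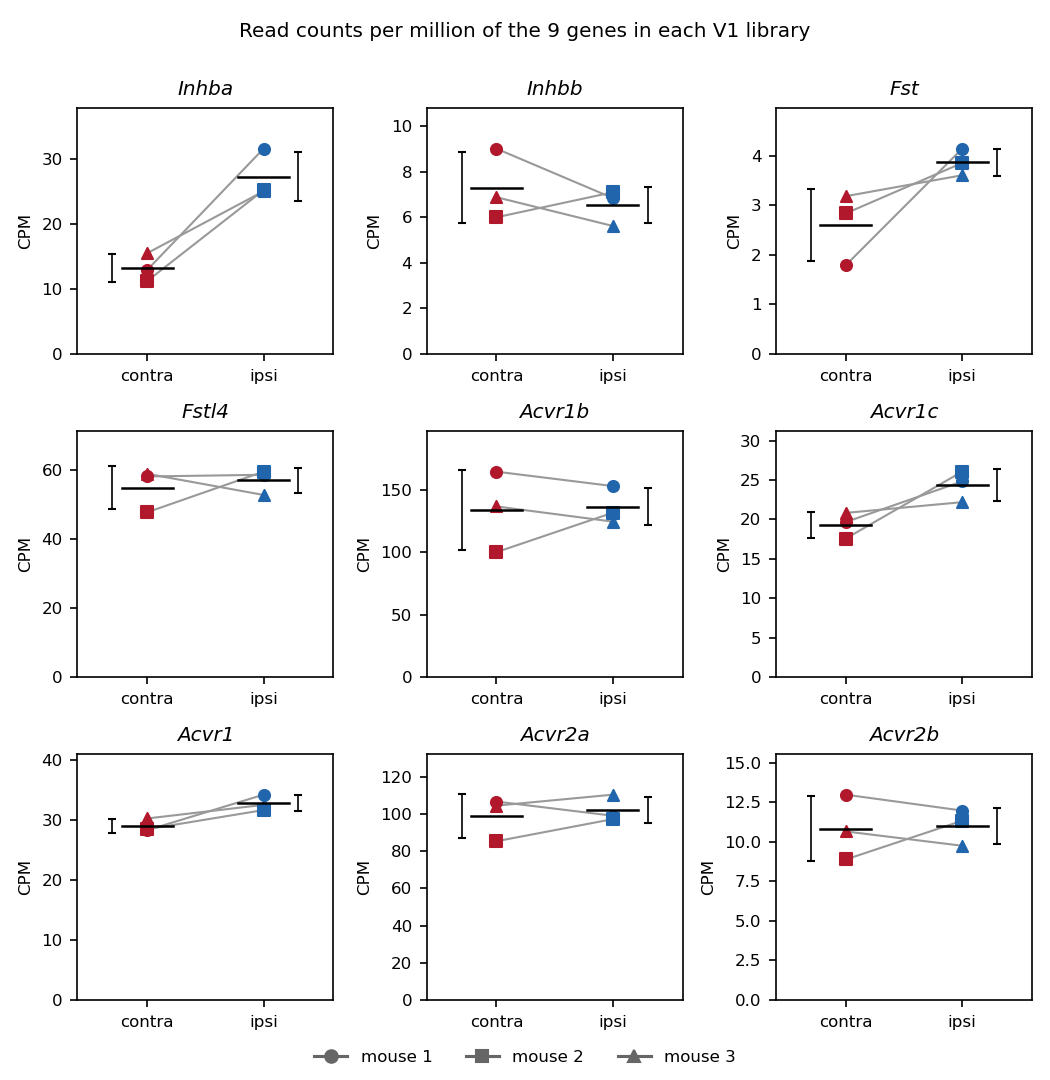
Scaled read counts (CPM, vertical axis from 0) of each of the 9 genes in contralateral (red) and ipsilateral (blue) V1, with 1 symbol per mouse and a line joining the hemispheres of a mouse; black bars are means and error bars SD of 3 libraries. For Inhba the contralateral libraries sit between 11.2 and 15.5 CPM, all below the ipsilateral ones at 24.97 to 31.5 CPM, while for Inhbb the groups overlap.

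Of the follistatin genes, Fst had lower values in each contralateral library and Fstl4 did not. Fst (ENSMUSG00000021765, chromosome 13, 114452290 to 114458951, minus strand), which encodes the activin trap, was the scarcest member, with 36, 53 and 69 reads in contralateral and 83, 119 and 88 reads in ipsilateral libraries 1 to 3. That came to 1.79, 2.84 and 3.19 CPM against 4.14, 3.86 and 3.61 CPM. The groups did not overlap, although they came within 1.13-fold of each other in mouse 3. The log2 fold change was -0.57 (SE 0.26, 95% interval -1.13 to -0.01, adjusted p = 0.804), and it did not pass with the mouse as a block either (-0.58, adjusted p = 0.323). Its size rested in part on mouse 1: the log2 fold change was -0.36 without contralateral library 1, -0.34 without mouse 1 and -1.12 within the low mt-Rnr1 libraries, and it passed in none of these. With the fewest reads of the set, Fst also had the widest interval.

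Fstl4 (ENSMUSG00000036264, chromosome 11, 52764634 to 53188538, plus strand) encodes a secreted protein with a follistatin domain. It was at 58.0, 47.7 and 58.8 CPM in contralateral and at 58.5, 59.4 and 52.7 CPM in ipsilateral libraries 1 to 3. Contralateral library 2 was the lowest and ipsilateral library 3 the next, and the groups overlapped. The log2 fold change was -0.05 (SE 0.13, 95% interval -0.33 to 0.22, adjusted p = 0.960), and its sign turned without contralateral library 2 (0.04).

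Neither type I receptor gene of the activin pathway passed, and their values differed in pattern. Acvr1b (ENSMUSG00000000532, chromosome 15, 101174067 to 101213684, plus strand), the main type I receptor of activin A, was at 164, 99.98 and 137 CPM in contralateral and at 153, 132 and 124 CPM in ipsilateral libraries 1 to 3. The contralateral group was the wider one and enclosed the ipsilateral group. Its log2 fold change was -0.03 (SE 0.17, 95% interval -0.39 to 0.33, adjusted p = 0.985), and without contralateral library 2 it was 0.14.

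Acvr1c (ENSMUSG00000026834, chromosome 2, 58267453 to 58357895, minus strand), the type I receptor used by activin B and AB and by nodal, was at 19.7, 17.6 and 20.8 CPM in contralateral and at 24.8, 26.1 and 22.2 CPM in ipsilateral libraries. Every contralateral library lay below every ipsilateral one, by 1.07-fold at the closest point. The log2 fold change was -0.33 (SE 0.14, 95% interval -0.64 to -0.03, adjusted p = 0.784), and blocking on the mouse left it short of the threshold (adjusted p = 0.232). Its value stayed between -0.45 and -0.21 over 20 alternatives and passed in none of them.

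Acvr1 (ENSMUSG00000026836, chromosome 2, 58388644 to 58567157, minus strand), the type I receptor ALK2 that mainly serves bone morphogenetic proteins, was at 28.3, 28.5 and 30.3 CPM in contralateral and at 34.3, 31.7 and 32.6 CPM in ipsilateral libraries. These groups too did not overlap, and the gap between them was 1.05-fold. The log2 fold change was -0.18 (SE 0.12, 95% interval -0.44 to 0.09, adjusted p = 0.844). Acvr1 and Acvr1c lie side by side on chromosome 2 on the same strand.

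The type II receptor genes, whose products bind the ligand first, had intervals on both sides of 0. Acvr2a (ENSMUSG00000052155, chromosome 2, 48814109 to 48903269, plus strand) was at 107, 85.4 and 105 CPM in contralateral and at 99.1, 97.3 and 110 CPM in ipsilateral libraries 1 to 3, with a log2 fold change of -0.05 (SE 0.13, 95% interval -0.32 to 0.23, adjusted p = 0.962). Of its exon bases, 446 (7.84%) also belong to Orc4 on the opposite strand, so without a stated strand setting some of its reads are uncertain. Acvr2b (ENSMUSG00000061393, chromosome 9, 119402118 to 119434995, plus strand) was at 12.99, 8.89 and 10.7 CPM in contralateral and at 11.98, 11.3 and 9.76 CPM in ipsilateral libraries, with a log2 fold change of -0.02 (SE 0.18, 95% interval -0.42 to 0.38, adjusted p = 0.991). For both genes the groups overlapped and contralateral library 2 was the lowest.

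**Figure D2:**
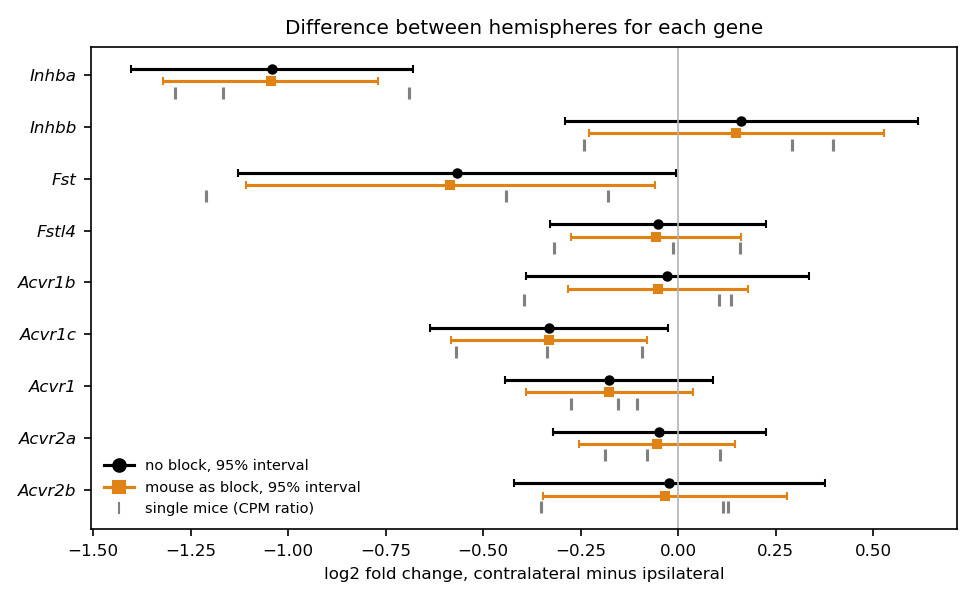
Log2 fold change (contralateral minus ipsilateral, horizontal axis) of each gene without a block (black circles) and with the mouse as a block (orange squares), with unadjusted 95% intervals, and the log2 ratio of CPM in each of the 3 mice (grey ticks). Inhba lies at -1.04 in both fits, and the other 8 genes lie between -0.58 and 0.16.

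Over the 9 genes, 1 passed as lower in contralateral V1 and 8 did not pass. The median log2 fold change was -0.05 against 0.03 over all genes tested. In 4 of the 9 (Inhba, Fst, Acvr1c and Acvr1) the contralateral libraries all lay below the ipsilateral ones, as they did for 6.29% of all genes tested. Nothing is read from that share, since the set was chosen with this comparison known. The lowest of the 6 libraries was contralateral 2 for 6 of the 9 genes (Inhba, Fstl4, Acvr1b, Acvr1c, Acvr2a and Acvr2b), against 22.6% of all genes tested.

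Levels of different genes were compared per length, as CPM per kb of the gene length in the deposited table. The receptor genes Acvr1b, at 30.6 CPM per kb (mean of 6 libraries, range 22.7 to 37.3), and Acvr2a, at 17.7 CPM per kb (15.02 to 19.4), were the highest of the set. Fstl4 followed at 12.8 CPM per kb (10.9 to 13.6) and Acvr1 at 6.41 CPM per kb (5.86 to 7.09). Each of these 4 was above the next in all 6 libraries. Per length Acvr1b exceeded 94.0% and Fst 22.7% of all genes tested.

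The ligand genes were lower than these receptor genes. Inhba had a mean of 3.16 CPM per kb (1.75 to 4.93), Acvr2b 2.78 (2.26 to 3.31) and Acvr1c 2.35 (1.89 to 2.80), in the same unit. Inhba was above Acvr2b in 3 of 6 libraries, the ipsilateral ones, and below it in the contralateral ones. The order of these neighbours thus turned with the hemisphere. Acvr2b was above Acvr1c in all 6 libraries and Acvr1c above Inhbb in 5. Inhbb, at 1.62 CPM per kb (1.32 to 2.12), was above Fst, at 0.959 CPM per kb (0.531 to 1.23), in all 6 libraries. In contralateral V1 Inhba took rank 7 of the 9 genes by mean and in ipsilateral V1 rank 5. Rank 7 rests on contralateral means of 2.06 ± 0.337 CPM per kb (SD) for Inhba and 2.08 ± 0.177 for Acvr1c. Inhba was the higher of these in contralateral library 3 (2.42 against 2.24), so neither gene was above the other in every contralateral library.

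**Figure D3:**
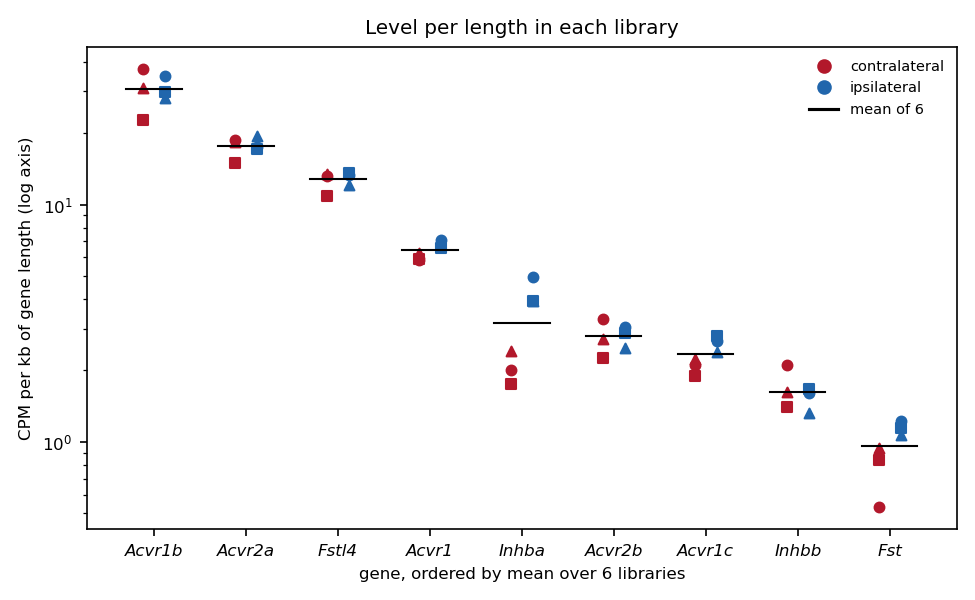
CPM per kb of gene length (log axis) of the 9 genes in each library, ordered by the mean over 6 libraries (black bars), with contralateral libraries in red and ipsilateral ones in blue and symbols by mouse as in the plot of CPM by hemisphere. Acvr1b lies highest at 22.7 to 37.3 and Fst lowest at 0.531 to 1.23, and the Inhba groups sit on either side of the Acvr2b mean.

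Ratios within a library compare the members free of library scaling, while sums of levels depend on it. Inhba made up 48.8%, 55.4% and 60.0% of the summed Inhba and Inhbb level per length in the contralateral V1 of mice 1 to 3 and 75.4%, 70.2% and 74.7% in their ipsilateral V1. Each contralateral library was thus nearer to an even mix of the subunit transcripts than any ipsilateral one. The size of the share rests on the gene lengths used, 6390 bases for Inhba and 4255 for Inhbb. The sum of both subunits was 3.78 ± 0.536 CPM per kb (SD, n = 3) in contralateral and 5.79 ± 0.675 CPM per kb in ipsilateral V1, lower in contralateral V1 in 3 of 3 mice. These ratios and sums come from the comparison that chose the set and carry no test.

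The ligand genes can also be set against Fst, the gene of their trap. The size of each such ratio rests on the gene lengths used, 3374 bases for Fst. Inhba over Fst was 3.80, 2.08 and 2.56 in contralateral and 4.01, 3.44 and 3.65 in ipsilateral libraries 1 to 3, lower in contralateral V1 in 3 of 3 mice, with contralateral library 1 inside the ipsilateral range. The summed subunits over Fst were 5.27 ± 2.19 (SD, n = 3) in contralateral and 5.04 ± 0.247 in ipsilateral V1. The groups overlapped, and contralateral library 1, with 36 Fst reads, gave the highest value of 7.79. Acvr2a over Acvr2b was 6.36 ± 0.598 and 6.49 ± 1.16, and Acvr1b over Acvr1c was 14.5 ± 2.87 in contralateral and 11.8 ± 1.17 in ipsilateral V1.

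One circular RNA came from the set, a closed loop of Acvr2a recognised by reads that cross its back-splice junction. It joins the end of exon 4 to the start of exon 2 of transcript ENSMUST00000063886 (chromosome 2, 48870289 to 48873473, plus strand), 473 coding bases in all. The junction is shown because it is what the back-splice reads identify. It is written 5′ to 3′ from GENCODE M21 transcripts, with the last 25 bases of exon 4 in lower case and the first 25 of exon 2 in capitals.
circAcvr2a: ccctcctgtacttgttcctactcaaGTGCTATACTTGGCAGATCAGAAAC
It had 8, 13 and 20 back-splice reads in contralateral and 6, 18 and 25 in ipsilateral libraries 1 to 3. In both hemispheres mouse 1 had the fewest and mouse 3 the most, and the groups overlapped. Per 1000 reads of the host gene that was 6.90 ± 2.77 (SD, n = 3) in contralateral and 6.10 ± 3.13 in ipsilateral V1. The log2 fold change was -0.08 (SE 0.49, 95% interval -1.03 to 0.88, adjusted p = 0.999 in edgeR's quasi-likelihood test over 1468 circRNAs). Of all circRNAs tested, 0% passed, with 52 at an unadjusted p under 0.05. With 90 reads in all, the interval left room for a difference of either sign. Of the 1488 circRNAs, 219 had more reads.

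The wider pathway was followed in a list of 68 other genes, of which 58 passed the filter on low counts. That list was chosen with earlier results of these data known, so its counts are a description and nothing further is read from them. None of the 58 passed in either direction in edgeR's quasi-likelihood test or in DESeq2 (3 were at an unadjusted p under 0.05 in edgeR), in a table where 0.127% of genes passed as lower, 0% as higher and 1259 of 20473 had an unadjusted p under 0.05. Of the 58, 29 lay below and 29 above 0, and the median log2 fold change was 0.00. With the mouse as a block 2 were lower and 0 higher (in a table with 0.698% of genes lower and 0.195% higher). The 2 were Skil, which encodes the Smad corepressor SnoN, and Ccn2, a matricellular protein gene known as a target of TGF-beta signalling and also as a marker of deep-layer cortical neurons.

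Skil was at 110, 93.0 and 124 CPM in contralateral and at 156, 139 and 149 CPM in ipsilateral libraries 1 to 3, groups that did not overlap. Its log2 fold change was -0.44 (SE 0.13, adjusted p = 0.563), and blocking on the mouse gave -0.45 (adjusted p = 0.0351). Ccn2 was at 9.76, 7.87 and 6.32 CPM in contralateral and at 19.7, 12.02 and 10.99 CPM in ipsilateral libraries, again without overlap. Its log2 fold change was -0.83 (SE 0.24, adjusted p = 0.550), and -0.81 (adjusted p = 0.00849) with the block. Pmepa1, a Smad-induced feedback inhibitor, had 35.04, 34.5 and 32.9 CPM against 51.0, 46.0 and 40.6 CPM and missed the threshold in edgeR without the block (-0.43, adjusted p = 0.575) and with it (-0.42, adjusted p = 0.0514), but passed with the block in DESeq2.

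By role, the pathway list spread as follows. Of 19 other ligand genes 12 were tested and none passed (median 0.10), with Lefty2 (-0.62, adjusted p = 0.826) and Bmp5 (-0.46, 0.847) at the smallest p. Inha, named outside the rule for pathway genes because its alpha subunit pairs with either beta subunit to make inhibin, was at 6.97 to 16.9 CPM in contralateral and 10.5 to 14.3 CPM in ipsilateral libraries (0.06, adjusted p = 0.979). Of 11 other receptors and co-receptors 10 were tested and none passed (median -0.05), with Tgfbr3, the betaglycan that helps inhibin block activin, at 0.34 (adjusted p = 0.807) and Acvrl1, the endothelial receptor ALK1, at -0.35 (0.830).

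Of 9 other binding proteins 8 were tested and none passed (median -0.03), led by Fstl5 (-0.34, adjusted p = 0.806) and the bone morphogenetic protein antagonist Chrd (0.31, 0.836). All 8 Smad genes were tested and none passed (median -0.03). The inhibitory Smad7 (-0.23, adjusted p = 0.846) and the common partner Smad4 (-0.09, 0.914) had the smallest p. Of 13 Smad partners and regulators 12 were tested (median -0.01), with Fkbp1a, whose product FKBP12 holds type I receptors inactive, at -0.24 (adjusted p = 0.826). The 8 target genes had a median of -0.23, and Ccn2 and Pmepa1 led them.

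**Figure D4:**
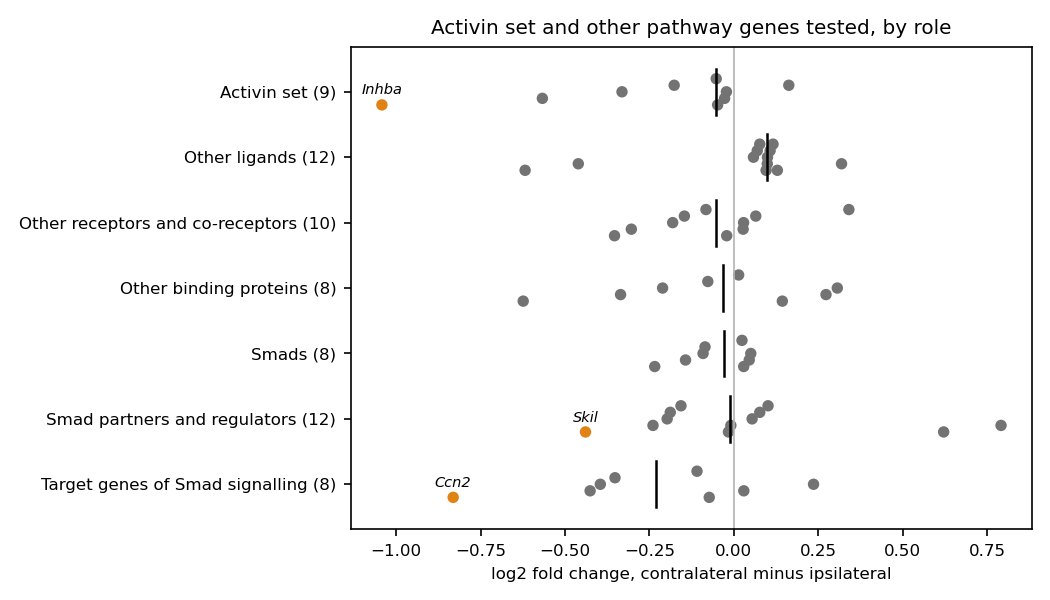
Log2 fold change (contralateral minus ipsilateral, horizontal axis, no block) of the 9 activin genes and of 58 other pathway genes by role, with the number tested in brackets and black bars at group medians; orange points passed with the mouse as a block. Inhba lies at -1.04, Ccn2 at -0.83 and Skil at -0.44, and group medians lie between -0.23 and 0.10.

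Genes whose pattern was most like that of Inhba were found by the root mean square distance between log2 CPM values. Each gene was centred on its mean over the 6 libraries. The search covered 13585 tested genes with a mean of at least 1 CPM. Genes without a symbol and predicted genes or clones with numbered names were left out of it. The 8 nearest were Egr3 (distance 0.07 in log2 units), Kcnv1 (0.11), Serpinb8 (0.11), Slc17a8 (0.12), Pcsk1 (0.12), Adcyap1 (0.14), Zdbf2 (0.15) and Dusp5 (0.16). Egr3 is an activity-induced zinc finger transcription factor, Pcsk1 a prohormone convertase, Adcyap1 the gene of the neuropeptide PACAP, Slc17a8 a vesicular glutamate transporter and Dusp5 a phosphatase of ERK kinases. The SD of Inhba itself over the 6 libraries was 0.60 on that scale, against a median of 0.21 over the genes compared. All points share the same 6 libraries and their scaling, and the hemisphere difference enters the distance. Whether these genes passed in the hemisphere comparison is therefore set in part by how they were picked. Within mice alone, with each mouse centred on its own mean, 4 of the 8 nearest genes were the same (Egr3, Kcnv1, Slc17a8 and Dusp5). Serpinb8, Pcsk1, Adcyap1 and Zdbf2 dropped out, and Chrna5, Mas1, Tspan11 and Trib1 took their places. In edgeR's quasi-likelihood test Serpinb8 (adjusted p = 0.205) and Slc17a8 (0.452) did not pass. With the mouse as a block Serpinb8 passed (0.0115) and Slc17a8 did not (0.0847).

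The other members lay farther from Inhba, from 0.34 for Fst, 0.38 for Acvr1c and 0.46 for Acvr1 to 0.64 for Inhbb. Inhba and Fst were both highest in ipsilateral library 1, while their lowest libraries were contralateral 2 and contralateral 1.

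**Figure D5:**
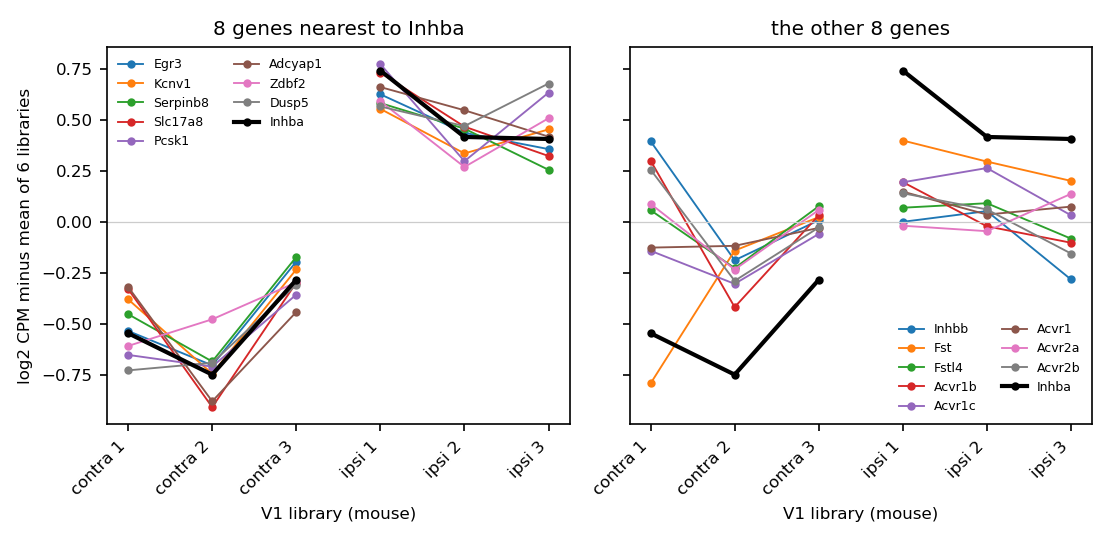
Log2 CPM minus the mean over 6 libraries (vertical axis) in each V1 library (horizontal axis, mouse number), for Inhba (thick black) with its 8 nearest genes on the left and with the other 8 genes of the set on the right; lines join libraries of a hemisphere only to guide the eye. Inhba runs from -0.75 in contralateral library 2 to 0.74 in ipsilateral library 1.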

How the data were processed

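Total RNA of V1 was sequenced from 6 libraries made with a stranded kit, per the labels' protocols. The authors deposited raw read counts per Ensembl gene and raw back-splice counts per circRNA, per the file headers. Per the submitters' processing notes, the build was GRCm38 and the tools included HISAT2, featureCounts, limma and DESeq2. For the annotation release, strand setting and circRNA caller, the entry is: not given in the sources used here. Symbols and gene bounds came from GENCODE M21 (52489 of 52636 IDs), promoter sequences from RefSeq (GRCm38.p6). The 6 normalized circRNA files were not used, and columns of samples of other series numbered 0.

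The members and lists were chosen with earlier results of these data known. Genes were tested with edgeR 4.0.16 (R 4.3.3; quasi-likelihood, TMM, filterByExpr at min.count 10 and min.total.count 15) and Benjamini-Hochberg adjustment over 20473 genes at 0.05, and circRNAs with at least 2 reads in 3 libraries likewise. The script was tested on simulated data. Each SE was obtained by dividing the size of the log2 fold change by the root of its F statistic. Named pathway genes were those passing with or without the block and the 2 smallest p per role; Inha was added for its role after its values were seen. Alternatives used DESeq2 1.42.0, limma 3.58.1, other scaling and filters, the mouse block and left-out libraries. The labels give both hemispheres of a number the same mouse. Deviations from group means correlated at 0.416, 0.0750 and 0.163 within mice 1 to 3, against at most -0.180, 0.174 and 0.174 with another mouse. For mice 2 and 3 the value within the mouse was thus below the highest one with another mouse. The pairing used for the block rests there on the labels alone. Libraries of a group are different mice. Correlations between libraries were 0.975 to 0.987, so none was a duplicate. Figures used matplotlib 3.10.9. Intervals and counts cover no error of molecular duplication, since reads carried no identifiers used here. The excitatory neuron marker list is not reported here.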

Additional observations from a re-analysis of the deposited data

How the results depend on the processing

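Inhba stayed lower in contralateral V1 in all 20 alternatives (13 passing, adjusted p from 5.15e-07 to 1.00). The other 8 genes passed in none. Over all genes, 26 passed, against 95 with DESeq2, 109 without a filter on low counts, 183 with the replicate block (the mouse as a block), 205 with the replicate block in DESeq2, and 0 to 35 with 1 library left out. Without contralateral library 2 or without mouse 2 it was 0 (833 and 521 at an unadjusted p under 0.05 in edgeR), and without mouse 3 it was 14. Of the 9 genes, 1 passed in the main comparison, 0 without mouse 2, without mouse 3 or within either mt-Rnr1 set, and 0 to 1 with 1 library left out. The replicate block changed the call of none of the 9. Of the pathway list 0 passed, against 1 without a filter (Ccn2), 2 with the replicate block and 3 with it in DESeq2 (Skil, Ccn2 and Pmepa1).

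Log2 fold changes that turned sign lay between -0.08 (circAcvr2a) and 0.16 (Inhbb) in the main comparison, and the cause was not tested. With 1 library left out, they ran from -0.021 to 0.28 for Inhbb, -0.11 to 0.038 for Fstl4, -0.21 to 0.14 for Acvr1b, -0.11 to 0.046 for Acvr2a, -0.18 to 0.10 for Acvr2b and -0.32 to 0.52 for circAcvr2a. Inhbb was at -0.018 without mouse 1 and at -0.14 within the high mt-Rnr1 set. Without mouse 2, Fstl4 was at 0.072, Acvr1b at 0.12, Acvr2a at 0.012 and Acvr2b at 0.12. Within the low mt-Rnr1 set, they were at 0.051, 0.24, 0.016 and 0.25. With mt-Rnr1 as a term, Acvr1b was at 0.028 and Acvr2b at 0.0079. CircAcvr2a was at 0.070 when scaled by gene reads. DESeq2 with the replicate block gave Fst no adjusted p. Depth limits Fst, with 36 to 119 reads a library, and circAcvr2a, with 6 to 25.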

Other observations

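The 3 genes nearest to Fst in their pattern over the 6 libraries were Rspo2 (root mean square distance 0.12 in log2 units), a secreted enhancer of Wnt signalling, Mypn (0.13), a sarcomere protein gene, and Per2 (0.14), a circadian clock gene. Those nearest to Inhbb were Selenom (0.04), Amer3 (0.04) and Chst12 (0.05). Among the 13585 genes compared, Fst had an SD of 0.43 on that log2 scale and Inhbb an SD of 0.23, against a median of 0.21. These distances share the 6 libraries and their depth, and no test was made.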
